A study of Mus musculus with 3 samples.

Results

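Blood-forming progenitors that carried the transcription factors Meis1 and Hlf were taken from 3 single-cell RNA libraries of the mouse bone marrow niche; they were chosen by their own raw transcript counts of 12 genes, so the levels of those genes describe the choice. A barcode (the tag of 1 captured droplet, taken here as 1 cell) was a member if it showed 500 genes or more, with no more than 10% of its UMIs mitochondrial (UMIs are unique molecular identifiers, each standing for 1 captured transcript). It also had to hold at least 1 UMI of Ptprc, the gene of the pan-leukocyte antigen CD45, at least 2 UMIs of Meis1 and Hlf together, and at least 1 UMI of Cdk6, Kit or Cd34. It could hold no Cdh5, no Cd79a, at most 5 UMIs of Cxcl12 and fewer than 5 UMIs of Elane, Mpo and Prtn3 together. These clauses leave out endothelium, B cells, stroma and granule-making myeloid progenitors. The gate took 104 of 12790 filtered barcodes, 7 in the WT library, 87 in FLOX and 10 in VC. The 1432 other haematopoietic barcodes, with Ptprc, no Cdh5 and at most 5 UMIs of Cxcl12, served for comparison (562 in WT, 602 in FLOX and 268 in VC).

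Meis1 is a homeodomain factor that works with Hox and Pbx proteins, and Hlf is a leucine zipper factor. Both are active in haematopoietic stem cells and the earliest multipotent progenitors and fall away as cells commit to a lineage. Such cells sit beside marrow sinusoids and the LepR-positive stromal cells around them, which supply Cxcl12 and stem cell factor, the ligands of Cxcr4 and Kit.

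Each genotype was a single library, so no value below has a replicate check and none was tested. Wild-type mice gave the WT library, Vegfc flox/flox mice, for which no Cre is named, gave the FLOX library, and the VC library derives from Cdh5CreERT2;Vegfc flox/flox mice, in which the VE-cadherin promoter drives a Cre recombinase that tamoxifen activates. All 3 groups were of strain C57Bl/6JCrl and all received tamoxifen by gavage; the sources used here state neither age, nor the number of mice per library, nor the sort gates. The tissue was flushed and digested tibial marrow, labelled as endothelial and LepR-positive cells after depletion of red cells and staining for CD45, Ter119 and LepR; haematopoietic barcodes were present among them. Intervals in brackets or after a value are 95% and cover counting error only.

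The libraries held 56853574 (WT), 61758462 (FLOX) and 37361779 (VC) UMIs, and the members 161260, 923722 and 140679 of them. Members had a median of 15441, 9732 and 12693 UMIs in WT, FLOX and VC, so that 1 UMI was worth 6.2, 1.08 and 7.11 CPM (a gene's UMIs as a proportion of the members' summed UMIs, on the usual CPM scale). The 2 deepest barcodes held 59.8% of the WT members' UMIs, 5.71% in FLOX and 32.3% in VC. Between 5 and 10 barcode sequences were shared by each pair of libraries, and no member was among them. Vegfc itself, the floxed gene, had 0 UMIs in WT members, 3 in FLOX members and 1 in VC members. In barcodes with at least 2 UMIs of Cdh5, no Ptprc and at most 5 UMIs of Cxcl12, called endothelial below, the level of Vegfc was 1.57 CPM for WT, 0.594 CPM for FLOX and 0.151 CPM for VC. No source used here states which stretch of the gene was floxed, and these low 3′ values are not read as a check of the deletion.

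The defining genes were present together in FLOX and VC but not in WT. Both Meis1 and Hlf were detected in 81 of 87 FLOX members and in 10 of 10 VC members, against 2 of 7 WT members. FLOX members held a median of 4 UMIs of Meis1 and 7 of Hlf, VC members 5 and 9, and WT members 2 and 2. Kit, the stem cell factor receptor, was detected in 79 FLOX, 10 VC and 6 WT members. Cd34, a sialomucin of early progenitors, was detected in 70 FLOX, 7 VC and 3 WT members. These counts describe what the gate chose and are no result of their own.

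The WT members were a mixture, and several went against the name progenitor. WT barcode 3, with 5 UMIs of Meis1, 9 of Hlf, 2 of Mecom and 1 of Procr, resembled the FLOX members. Barcode 6, with 5 of Meis1, 2 of Hlf and 2 of Mecom, did so in part. It also held 11 UMIs of the proliferation gene Mki67 among 9347, and none of Procr or Nkx2-3. Barcode 1 held 9 UMIs of Meis1, none of Hlf and 14 of Mki67 among 15441. Barcode 2 held 2 UMIs of Hlf beside 3368 of S100a8 and 3770 of S100a9, granule proteins of neutrophils, out of 19118 UMIs in all. Barcode 4 held 6 UMIs of Hlf beside 22 of Gata3, 43 of Rora and 33 of Il7r, genes of innate and T lymphoid cells, and none of Kit or Cd34. Barcodes 5 and 7 were the deepest, at 63687 and 32809 UMIs, and held 2 UMIs of Meis1 and none of Hlf each, with 6 and 4 UMIs of the erythroid factor Klf1 and 173 and 64 of carbonic anhydrase 2 (Car2). WT members also had the most doublet-like profiles: 3 of 7 lay in the top 5% of Scrublet doublet scores of their library, against 1 of 87 in FLOX and 0 of 10 in VC. Results that rest on the WT members are therefore given with and without them.

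**Figure D1:**
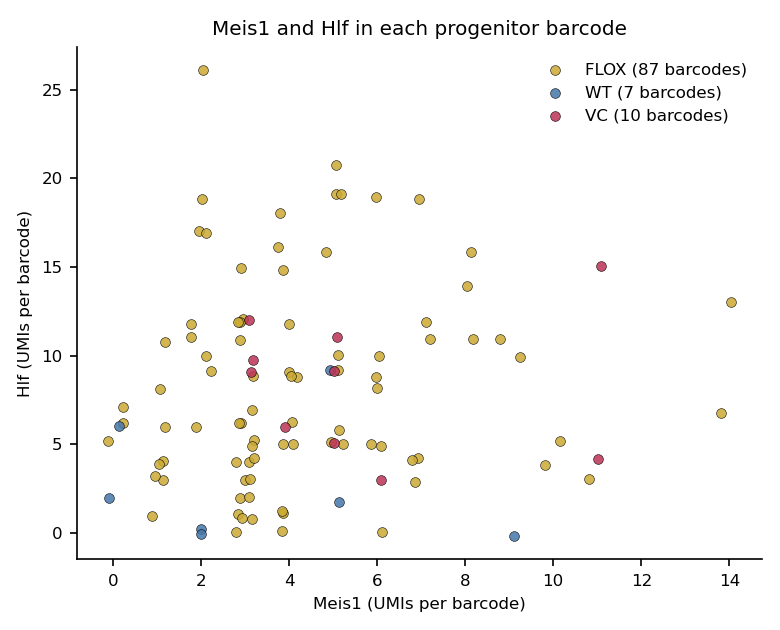
UMIs of Meis1 (x axis) and Hlf (y axis) in each of the 104 gated barcodes, coloured by library and moved by a small random offset so that equal counts stay visible. The 10 VC points lie among the 87 FLOX points, whereas 5 of the 7 WT points sit on an axis because 1 of the 2 genes was not detected.

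Members made up 1.23% (0.496 to 2.52) of haematopoietic barcodes in WT, 12.6% (10.2 to 15.3) in FLOX and 3.6% (1.74 to 6.52) in VC. The FLOX share stood above both others by more than counting error, and the WT and VC intervals overlapped. Because the gate counts raw UMIs, it depends on depth. Each filtered barcode was therefore thinned to 2000 UMIs and gated again. This left out 201, 149 and 111 shallower filtered barcodes of any cell type in WT, FLOX and VC. The thinned shares are of the 370, 376 and 175 barcodes that met the haematopoietic clauses after thinning. These shares were 0.270%, 11.7% and 2.29%, in the same order. Thinned to 4000 UMIs they were 1.24%, 26.3% and 6.25%, of 403, 357 and 160 such barcodes. The barcodes chosen were partly others: 25 of the 44 FLOX barcodes that passed at 2000 UMIs and 50 of the 94 at 4000 were members before thinning. Thinning also lowers the counts of Elane, Mpo, Prtn3, Cdh5, Cxcl12 and Cd79a, so barcodes that these limits shut out at full depth can pass. The thinned shares therefore do not compare the same group at equal depth. The 2 libraries without Cre, WT and FLOX, were at the low and the high end, with VC between them. With the sort gates unknown, the shares describe what was captured and not the marrow.

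The limit on granule genes cut through the middle of a larger group. FLOX held 8, 18, 26, 20 and 15 members with 0, 1, 2, 3 and 4 UMIs of Elane, Mpo and Prtn3 together, and just outside the limit 27 barcodes with 5 UMIs and 25 with 6 met every other clause. Nearly all of that signal was Prtn3, the gene of proteinase 3, which gave 97.4% of the UMIs of the 3 genes in FLOX members, while Elane (neutrophil elastase) had 0 UMIs in the 87 barcodes. Prtn3 was detected in 44.8% of FLOX members after thinning to 2000 UMIs. The same share was 4.98% in FLOX stromal barcodes (over 5 UMIs of Cxcl12, no Ptprc or Cdh5). The part of background RNA in these values was not tested.

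The 74 FLOX barcodes with 5 to 9 UMIs of the 3 granule genes looked much like the members. Their Hlf stood at 811 CPM (756 to 869) against 789 CPM (733 to 849) in members, Mecom at 163 against 191 CPM, Nkx2-3 at 337 against 299 CPM and Kit at 332 against 356 CPM. Mki67 was higher outside the limit, at 380 CPM (343 to 420) against 221 (192 to 253). A change of kind appeared further out: the 8 FLOX barcodes with 50 UMIs or more had Hlf at 66.3 CPM and 0 UMIs of Mecom and Nkx2-3, beside 1973 CPM of Ctsg (cathepsin G) and 885 CPM of Ms4a3, a gene of granulocyte and monocyte progenitors. In all, 97 FLOX barcodes missed only this clause and lie among the comparison barcodes. Without the clause the gate took 22, 184 and 26 barcodes, or 3.87%, 26.7% and 9.35% of haematopoietic barcodes in WT, FLOX and VC.

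**Figure D2:**
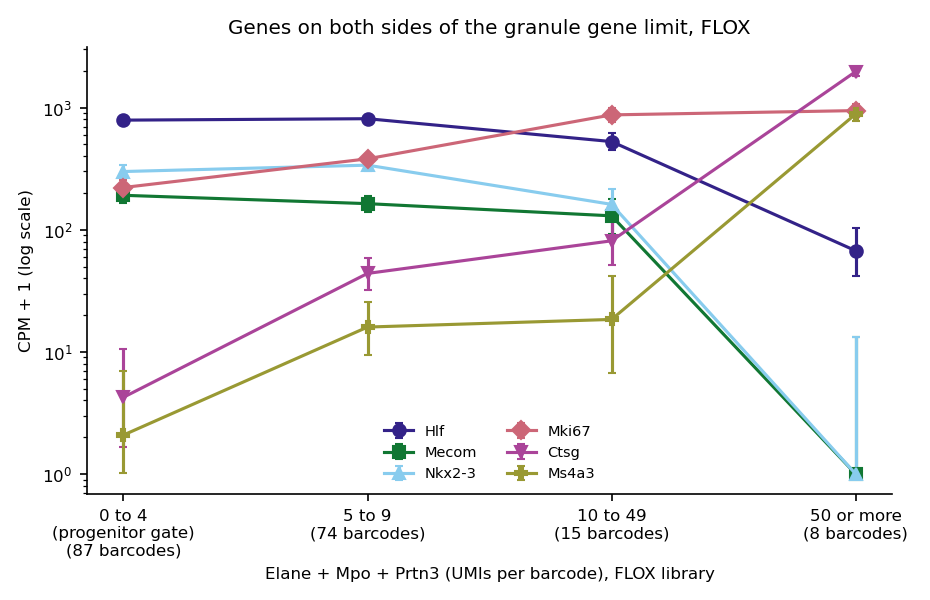
CPM + 1 (log scale) of 6 genes in FLOX barcodes that met every other clause of the gate, by their UMIs of Elane, Mpo and Prtn3 together; bars are 95% Poisson intervals and the leftmost group is the 87 members. Hlf, Mecom and Nkx2-3 hold their level from members to barcodes with 5 to 9 UMIs, and Ctsg and Ms4a3 are highest in the 8 barcodes with 50 UMIs or more.

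Compared with the other haematopoietic barcodes, members were rich in genes of stem cells and early progenitors. Of 3219 genes with at least 50 CPM in the members of the 3 libraries together, 196 (6.09%) were at least 2-fold higher in members in every library, and 567 (17.6%) were so in FLOX and VC. Of 2674 genes with at least 50 CPM in the other barcodes, 171 (6.39%) were at least 2-fold lower in members in every library, and 246 (9.2%) in FLOX and VC. With size factors that centre the middle gene, which lower the log2 ratios by 0.08 in WT, 0.50 in FLOX and 0.70 in VC, the counts turned to 101 higher and 278 lower. Ratios below are on the CPM scale.

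Of 15 stem cell genes fixed as a list, 14 were detected and 6 reached 50 CPM. Of these, 5 were higher in members in every library, among them Mecom, Mllt3, Pdzk1ip1 and Procr. A gene counted as higher had to reach 50 CPM in members, so genes low in the others, such as Mecom and Procr, entered through the members. The tallies of higher genes here and in the lists below are thus partly set by that minimum and by the gate, and are given as a description. The list's median log2 ratio to other barcodes was 0.54 for WT, 1.17 for FLOX and 1.41 for VC; over all 3600 genes at 50 CPM in either group it was 0.00, 0.46 and 0.54. Mecom, which encodes the stem cell factor Evi1, stood at 24.8 (WT), 191 (FLOX) and 149 CPM (VC) in members and at 1.14, 23.2 and 5.25 CPM in the others. Procr, the endothelial protein C receptor used to sort stem cells, stood at 6.2, 79.0 and 92.4 CPM against 0.253, 14.4 and 4.79 CPM. WT values rest on 4 UMIs of Mecom and 1 of Procr, while the intervals of FLOX and VC members overlapped for each.

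Ly6a, which encodes the stem cell antigen Sca-1, was the stem cell gene that did not mark members. It stood at 6.2, 161 and 370 CPM in members of the WT, FLOX and VC libraries but at 52.8, 512 and 582 CPM in the other haematopoietic barcodes. Hoxb5, Slamf1 and Vwf, used elsewhere to mark stem cells that renew for long, were close to the detection limit: 0 to 6 UMIs of Hoxb5, 1 to 9 of Slamf1 and 0 to 4 of Vwf per library. At these counts no difference between libraries could be detected.

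Among 17 early haematopoietic transcription factors, 15 reached 50 CPM, 7 were higher in members in every library and 11 in FLOX and VC, and none was lower. Lmo2, the bridging subunit of the Tal1 and Gata2 complex, stood at 298, 784 and 682 CPM in members of the WT, FLOX and VC libraries against 96.7, 160 and 110 CPM. Its partner Tal1 stood at 55.8, 145 and 71.1 CPM against 12, 24.1 and 7.07 CPM, and Gata2 at 155, 192 and 256 CPM against 75.5, 52.4 and 41.7 CPM. Nkx2-3, a homeobox gene, stood at 12.4, 299 and 213 CPM against 0.631, 45.5 and 22.6 CPM, with 2 UMIs in WT; without the top 5% of doublet scores its smallest ratio, and that of Procr, was 0. Spi1, whose product PU.1 drives myeloid fate, had lower levels in members, at 49.6, 98.5 and 107 CPM against 225, 169 and 172 CPM. Of 12 Hox and partner genes 3 reached 50 CPM, and Hoxa9, a partner of Meis1, was higher in members in every library at 62.0, 182 and 249 CPM against 2.78, 31.0 and 12.3 CPM.

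Genes of multipotent progenitors followed the same split. Of 12 such genes, 4 were higher in members in every library (Adgrg1, Angpt1, Msi2 and Muc13), 9 in FLOX and VC, and 2 were lower in every library. Angpt1, the ligand of the receptor Tie2, stood at 93.0 (52.1 to 153), 547 (500 to 597) and 704 CPM (572 to 857) in WT, FLOX and VC members against 10.4, 78.3 and 32.8 CPM. Adgrg1, an adhesion receptor also called GPR56, stood at 99.2, 377 and 434 CPM against 28.7, 69.5 and 23.7 CPM. Flt3, the receptor that marks lymphoid-primed progenitors, stood at 6.2, 99.6 and 71.1 CPM against 4.92, 18.5 and 10.5 CPM. The 2 lower genes were Cd48, a surface protein that stem cells lack, at 12.4, 9.74 and 21.3 CPM in members against 76.8, 53.4 and 65.2 CPM, and Plac8, at 341, 186 and 320 CPM against 1085, 626 and 943 CPM.

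**Figure D3:**
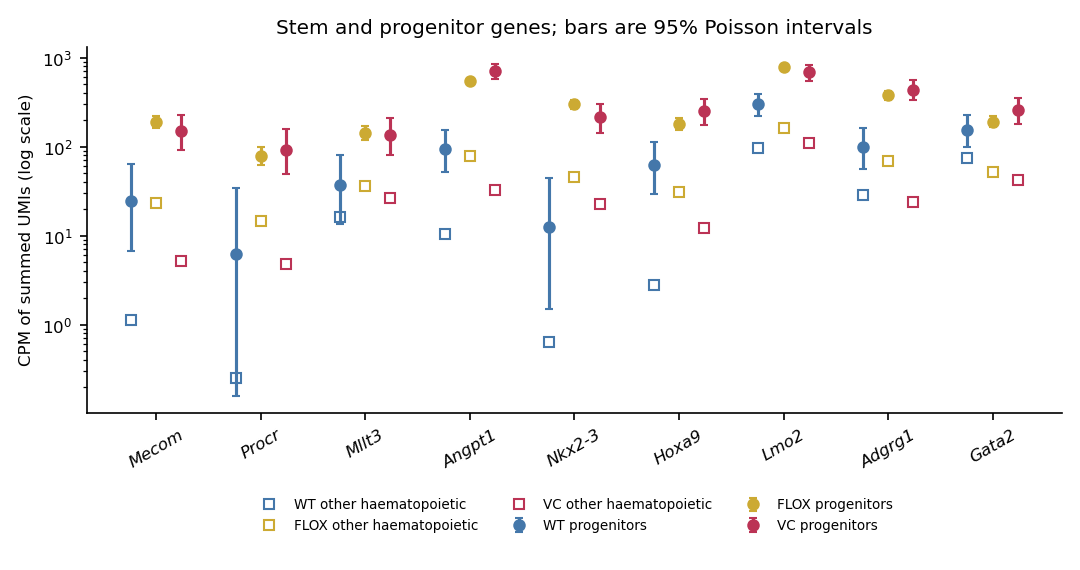
CPM (log scale) of 9 stem and progenitor genes in members (filled circles, with 95% Poisson intervals) and in the other haematopoietic barcodes of the same library (open squares). FLOX and VC circles lie side by side and above their squares for every gene, and WT circles lie lower, with wide intervals from 1 to 48 UMIs.

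Other leading genes belong to several programmes. Ctla2a, a cathepsin inhibitor, stood at 242, 1203 and 1187 CPM in members of the WT, FLOX and VC libraries against 31.2, 173 and 58.6 CPM. Car2 stood at 1836, 863 and 896 CPM against 144, 159 and 50.9 CPM, and the 2 erythroid-type WT barcodes gave most of its WT UMIs. Nr4a2, an orphan nuclear receptor induced early after stimulation, stood at 68.2, 413 and 540 CPM against 11, 71.1 and 30.8 CPM. Rora ranked high in all libraries, but its 267 CPM in WT came from 1 barcode; FLOX and VC members stood at 47.6 and 35.5 CPM against 5.60 and 2.97 CPM. Pf4, platelet factor 4, led the ratios over FLOX and VC at 211 and 56.9 CPM against 5.82 and 4.11 CPM, yet 1 of the 87 FLOX members held 63.1% of its UMIs there. Myct1, Pdzk1ip1, Tns1, Fam213a, Nefh, Ppp1r9a, Sdsl and Nfia were among the 20 leading genes as well, with smallest ratios of 5.22 to 8.21 over the libraries. Several of these ratios did not hold under other gates: with a Meis1 and Hlf minimum of 3 the smallest ratio was 0 for Nefh, Ppp1r9a and Nfia, and without barcodes holding UMIs of Kdr, Flt4, Stab2, Adipoq or Lepr it was 0 for Pdzk1ip1, Ppp1r9a and Rora.

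Genes of the myeloid, B and plasma cell lineages were lower in members. The gate shut out barcodes with Cd79a or 5 UMIs of the granule genes, and the comparison barcodes kept them (732 with Cd79a and 281 with granule genes), so the lower B and myeloid values follow from the choice of members and are given as a description. Of 12 myeloid progenitor genes, 9 reached 50 CPM in either group and 7 were lower in every library (Cebpe, Ctsg, F13a1, Igsf6, Irf8, Ly6c2 and Ms4a3). Ctsg had 0, 3 and 0 UMIs in WT, FLOX and VC members, against 692, 389 and 645 CPM in the others. The B lineage list had 5 of its 6 measured genes lower in every library; the B cell factor Ebf1 had 0 UMIs in members of the 3 libraries, against 784, 151 and 279 CPM. Jchain, the joining chain of secreted antibody, had 0, 50 and 1 UMIs in members against 942, 16916 and 20003 CPM, and FLOX detected it in 40 of 87 barcodes. Of 7 neutrophil genes 1 was lower in every library and 7 in FLOX and VC: S100a8 stood at 41.1 CPM in FLOX and 28.4 CPM in VC members against 15999 and 22158 CPM, whereas WT members stood at 20923 CPM, nearly all from barcode 2. Basophil and mast cell genes (3 of 4 lower) and plasma cell genes (4 of 4) went the same way. Lymphoid priming genes were mixed, with Bcl11a higher and Blnk lower in every library, as were dendritic cell genes, with Ly6d lower in every library and Runx2 higher in FLOX and VC.

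Few erythroid and megakaryocyte genes were measured, so their counts settle no direction. Of 13 erythroid genes 4 reached 50 CPM, 0 were lower in every library and Car2 was higher. Over all genes 6.39% were lower and 6.09% higher in every library, so 0 of 4 lower is near the share. The list summed to 2933, 955 and 1024 CPM in members of the WT, FLOX and VC libraries against 608, 351 and 180 CPM. Car2 alone gave most of the members' sum in each library. The list's median log2 ratio was 1.56, -0.12 and 0, so in FLOX and VC the list was not raised as a whole. Of 13 megakaryocyte genes 3 reached 50 CPM and 0 were lower in every library, again near the share of 6.39%, with Pf4 higher in FLOX and VC. The median log2 ratio of the megakaryocyte list was -0.41, 0.61 and 0.45, beside 0.00, 0.46 and 0.54 over all 3600 genes at 50 CPM.

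Genes of other niche cells were low but not absent. Of 12 endothelial genes, 3 reached 50 CPM; their summed level was 260, 516 and 334 CPM in members of the WT, FLOX and VC libraries against 204, 172 and 140 CPM in the others, and 3, 0 and 6 of the 12 stood at 0. Fabp4, at 12030, 11429 and 8800 CPM in endothelial barcodes, stood at 49.6, 102 and 21.3 CPM in members, and Kdr at 12.4, 19.5 and 0 CPM. Egfl7 was the endothelial gene higher in members in every library, at 49.6, 174 and 99.5 CPM against 21.3, 35.4 and 18.9 CPM; haematopoietic stem cells also express it. The 11 stromal genes summed to 37.2, 47.6 and 21.3 CPM in members, and none reached 50 CPM. Markers of T, NK and innate lymphoid cells summed to 583, 95.3 and 56.9 CPM, with WT barcode 4 as the main source in WT. The part of these genes in other results was not tested.

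Receptors for niche factors were read from a list of 26, of which 14 reached 50 CPM; 2 were higher in members in every library, Notch2 among them, Flt3 and Itgb1 in FLOX and VC as well, and Csf2rb was lower. Notch2 stood at 62.0, 54.1 and 85.3 CPM in members of the WT, FLOX and VC libraries against 27.9, 25.3 and 22.8 CPM. Cxcr4, the receptor of Cxcl12, stood at 24.8, 43.3 and 107 CPM in members against 124, 97.9 and 128 CPM, and was 2.46-fold higher in VC than in FLOX members. Of 10 VEGF ligands and receptors only Vegfb reached 50 CPM, at 43.4, 60.6 and 42.7 CPM against 17.7, 26.6 and 17.1 CPM. Flt4, the main Vegfc receptor, had 0, 5 and 1 UMIs in members, where endothelial barcodes stood at 680, 733 and 810 CPM.

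The summed level of Mki67 was lower in members than in the other haematopoietic barcodes. It stood at 434, 221 and 56.9 CPM in members of the WT, FLOX and VC libraries against 1023, 440 and 288 CPM in the others. Thinned to 2000 UMIs, Mki67 or Top2a was detected in 23% (14.6 to 33.3) of FLOX members and 25.5% (22 to 29.2) of other FLOX barcodes. The same shares were 30% (6.67 to 65.3) and 17.7% (13.3 to 22.9) in VC and 42.9% (9.90 to 81.6) and 38.3% (34.2 to 42.6) in WT. At equal depth the intervals of members and others overlapped in each library, and the order of the shares was not that of the summed levels in WT and VC. Only 10 of 87 FLOX members held 10 or more UMIs of these 2 genes. Of 12 cell cycle regulators, Ccnd1, Ccnd2 and Trp53 were higher in members in every library; cyclin D2 (Ccnd2) stood at 229, 392 and 405 CPM against 105, 137 and 158 CPM. Cdkn1c, whose product p57 inhibits cyclin-dependent kinases and helps keep stem cells quiescent, stood at 0, 30.3 and 35.5 CPM against 1.14, 6.04 and 2.51 CPM, below the 50 CPM minimum.

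Between libraries, VC members differed from both others most in interferon-response genes. A gene was counted where VC was at least 2-fold above WT and FLOX and its interval overlapped neither. This held for 22 of 3256 genes with a mean of 50 CPM (0.676%), and the reverse for 14 (0.43%). The same rule counted 104 and 126 genes with WT as the odd library (3.19% and 3.87%) and 8 and 4 with FLOX (0.246% and 0.123%), so WT stood further apart than VC did. Against FLOX alone, without the mixed WT members, 44 genes were higher in VC (1.35%) and 38 lower (1.17%). In the other haematopoietic barcodes the rule counted 7 of 2643 genes as higher in VC (0.265%) and 4 as lower (0.151%). None of the 7 were among the 22, but only 8 of the 22 reached the minimum in those barcodes. With so few genes and a share of 0.265%, the lack of overlap shows no difference between the groups.

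Of 25 interferon-response genes, 12 reached a mean of 50 CPM and 8 of these were among the 22, Iigp1, Gbp2, Gbp5, Gbp7, Igtp, Irgm1 and Irgm2 included. That mean includes VC. Gbp2, Gbp5, Igtp, Irgm1 and Irgm2 lay under 50 CPM in both WT and FLOX and reached the minimum only through VC. The tally of 8 in 12 is therefore partly set by the minimum and is given as a description. Iigp1, an immunity-related GTPase, stood at 68.2 (34.1 to 122), 63.9 (48.6 to 82.4) and 526 CPM (413 to 660) in the WT, FLOX and VC members, with 10 of its 11 WT UMIs in barcode 3. Gbp2, a guanylate-binding protein that attacks the vacuoles of pathogens, stood at 6.2, 46.6 and 277 CPM, and Igtp at 0, 21.7 and 164 CPM. VC stood above both other libraries for each of these genes, while the WT and FLOX intervals overlapped. Gbp7 (55.8, 126 and 370 CPM), Gbp5 (12.4, 20.6 and 156 CPM), Irgm1 (6.2, 30.3 and 128 CPM) and Irgm2 (6.2, 28.2 and 142 CPM) also stood highest in VC.

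Over the 25 genes the median log2 ratio was 1.98 for VC against WT, 1.00 for VC against FLOX and 0.98 for FLOX against WT, where all genes at 50 CPM had medians of 0.02, 0.05 and -0.06. The same list gave 0.78 (VC against WT) and 0.72 (VC against FLOX) in the other haematopoietic barcodes, 1.60 and 1.24 in Cxcl12-rich stromal barcodes, and 1.63 and 1.75 in endothelial barcodes. The VC library was therefore higher in these genes in each of the 4 groups, not in the progenitors alone. With the granule clause left out, 26 VC barcodes against 184 of FLOX, the median for VC against FLOX was 0.80, and Iigp1 stood at 372 CPM (322 to 427) against 54.5 (45.7 to 64.4).

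The signal was uneven among the 10 VC members. Their summed level of the 25 genes ran from 150 to 11444 CPM per barcode with a median of 2701, and 6 of 10 lay at 1000 CPM or more. FLOX members ran from 0 to 4829 CPM with a median of 917 and 33 of 87 at 1000 or more, and WT members from 105 to 2505 CPM with a median of 498 and 1 of 7. VC barcodes 1 to 10 held 1, 23, 4, 0, 0, 16, 0, 15, 14 and 1 UMIs of Iigp1, which was detected in 7 of 10 VC members and in 24 of 87 FLOX members, where the highest count was 7. VC barcode 2 alone held 27 of the 39 UMIs of Gbp2.

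Some of the counted genes were also high in VC endothelium, Iigp1 at 2353 CPM and Gbp2 at 202 CPM, and the part of endothelial RNA in the members' levels was not tested. Cxcl9 and Fabp4, both abundant in VC endothelium, were named after their values had been seen and are given as a description. The interferon-induced chemokine Cxcl9 stood at 3653 CPM in VC endothelial barcodes and had 1 UMI in VC members. Fabp4, at 8800 CPM there, had 3 UMIs. Cd274, which encodes the checkpoint ligand PD-L1, stood at 128 CPM in VC members, 19.3 CPM in VC endothelium and 18 CPM in the other haematopoietic barcodes, and at 6.2 and 32.5 CPM in WT and FLOX members.

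**Figure D4:**
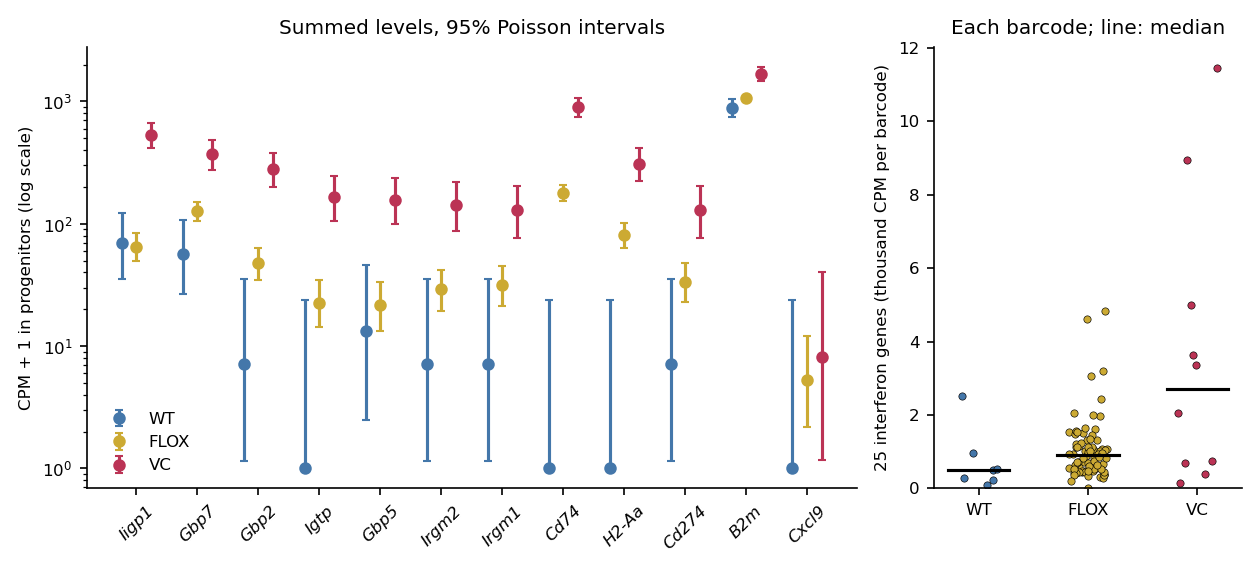
Left, CPM + 1 (log scale) of 12 interferon-response and antigen-presentation genes in WT, FLOX and VC members, with 95% Poisson intervals; right, the summed level of the 25 listed interferon genes in each barcode, in units of 1000 CPM, with the median as a line. VC stands above both other libraries for the first 10 genes while Cxcl9 is near 0 in each library, and 4 of the 10 VC barcodes lie below the FLOX median.

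The promoters of these genes are shown because the genes moved together. Of the 8 counted, 6 have a promoter in the RefSeq table of GRCm38.p6 (250 bases before to 50 after the gene's start). All 6 hold an interferon-stimulated response element, searched as GAAA and again GAAA with 2 bases of any kind between them, on either strand, as do 3.49% of 27025 promoters of that length, and 4 hold the gamma-activated site TTCNNNGAA, as do 8.47%. Capitals mark either motif, which may overlap. A match describes the letters and is no proof of binding. The genes came from the interferon list and were counted in these same data, so the matches describe that choice and are no result. Igtp lies at chr11:58199306-58199605 (+), Gbp2 at chr3:142620413-142620712 (+) and Gbp5 at chr3:142496684-142496983 (+).
Igtp: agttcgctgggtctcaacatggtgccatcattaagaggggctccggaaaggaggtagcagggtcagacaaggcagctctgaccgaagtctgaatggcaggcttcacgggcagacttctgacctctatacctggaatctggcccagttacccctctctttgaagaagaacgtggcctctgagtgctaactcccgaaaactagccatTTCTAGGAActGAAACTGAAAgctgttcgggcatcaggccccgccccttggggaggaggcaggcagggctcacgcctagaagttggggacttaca
Gbp2: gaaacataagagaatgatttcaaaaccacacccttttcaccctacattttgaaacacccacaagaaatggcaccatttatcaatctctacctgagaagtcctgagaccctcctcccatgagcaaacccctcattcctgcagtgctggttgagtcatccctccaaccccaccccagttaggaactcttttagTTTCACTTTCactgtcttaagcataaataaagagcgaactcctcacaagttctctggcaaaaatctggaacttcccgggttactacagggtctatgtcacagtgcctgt
Gbp5: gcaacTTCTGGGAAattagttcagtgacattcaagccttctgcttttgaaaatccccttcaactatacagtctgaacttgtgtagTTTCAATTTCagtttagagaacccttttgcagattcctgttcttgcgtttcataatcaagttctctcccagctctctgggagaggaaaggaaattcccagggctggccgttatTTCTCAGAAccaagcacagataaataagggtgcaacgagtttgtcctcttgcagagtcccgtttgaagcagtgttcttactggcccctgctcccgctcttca

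Class II antigen-presentation genes were higher in VC members too. Of 7 class II genes 5 reached 50 CPM, again as a mean that includes VC, and 4 were counted (Cd74, H2-Aa, H2-Ab1 and H2-Eb1). Cd74, the invariant chain that guides class II molecules, had 0 UMIs in WT and stood at 179 CPM (152 to 208) in FLOX and 896 CPM (746 to 1066) in VC members. H2-Aa stood at 0, 80.1 and 306 CPM. The other haematopoietic barcodes, which include B cells and dendritic cells, had Cd74 at 512, 1493 and 1722 CPM. Of 12 class I genes 11 were measured and Tap1, a peptide transporter subunit, was the 1 counted, at 55.8, 67.1 and 206 CPM; B2m stood at 881, 1060 and 1678 CPM. Ly6a, itself inducible by interferon, was counted among the 22 as well, and Bst2 stood at 99.2, 93.1 and 263 CPM.

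Of the 14 genes counted lower in VC members (0.43%), those with the largest ratios follow; no list of histone genes was tallied. Among WT, FLOX and VC members, Hist1h2ae stood at 447, 171 and 21.3 CPM, Hist1h1b at 850, 267 and 49.8 CPM, and Mki67 at 434, 221 and 56.9 CPM (24.6 to 112). Hist1h3c had 0 UMIs in VC members. With 3 UMIs set in their place, the FLOX level of 98.5 CPM was 4.62-fold and the WT level of 267 CPM 12.5-fold higher. Of the 15 listed replication and mitosis genes, 10 reached 50 CPM and 2 were counted lower (Birc5 and Mki67), while Mcm3, a helicase subunit loaded before replication, stood at 217, 147 and 341 CPM. These counts rest on few barcodes: 10 FLOX members, 3 WT members and 1 VC member held 10 or more UMIs of Mki67 and Top2a. With the granule clause left out, Mki67 stood at 689, 445 and 302 CPM, and Hist1h2ae and Hist1h3c no longer lay below both other libraries.

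The medians of the lists that mark members differed little between FLOX and VC. The median log2 ratio of VC to FLOX members was -0.03 over the 15 stem cell genes, -0.02 over the 17 early transcription factors and 0.14 over the 12 multipotent progenitor genes, close to 0.03 over all 3256 genes. Of the 15 stem cell genes, 6 reached a mean of 50 CPM and 3 had 0 UMIs in VC members. That median therefore rests largely on genes of low level and cannot show a shift of the others. Ly6a, on that list, was counted higher in VC. Of the 26 niche receptors Cxcr4 passed the rule against FLOX.

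Sub-clusters of the 104 members, made with all libraries together, describe how they vary; they were drawn on these same genes, so the differences are no result. Sub-cluster 1 (25 barcodes, 22 FLOX and 3 VC) was led by Meg3, Ptgs2 and Gbp5, each from a part of its barcodes. Meg3 was detected in 6 of the 25 and Ptgs2 in 3. VC barcodes 2 and 6 held 14 and 6 of the 27 UMIs of Gbp5, and the 22 FLOX barcodes stood at 39.8 CPM. Sub-cluster 1 also held the highest Procr, at 149 CPM, with Mllt3 at 278 CPM, Ly6a at 494 CPM and Hlf at 1107 CPM. Mki67 had 0 UMIs in its 25 barcodes. Sub-cluster 2 (18 FLOX and 4 VC) was led by Dntt, which came from 2 barcodes, and by other genes, Zfp367 among them, with the replication gene Mcm3 at 339 CPM. Sub-cluster 5 (4 WT, 11 FLOX and 1 VC) was led by Hist1h1b, Hist1h2ae and Hist1h3c, with Mki67 at 714 CPM, Hlf at 223 CPM and the erythroid and megakaryocyte factor Gata1 at 64.9 CPM, detected in no other sub-cluster.

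Single barcodes led the other 2. Sub-cluster 3 (1 WT, 19 FLOX and 1 VC) was led by Il7r, Calca and AC163354.1, and its Il7r came from 2 barcodes, WT barcode 4 and 1 FLOX barcode. Sub-cluster 4 (2 WT, 17 FLOX and 1 VC) was led by S100a8, S100a9 and Ngp, with 906 UMIs of Ngp in 1 barcode. In both, Hlf stayed high at 1001 and 776 CPM and Mki67 stood at 4.93 and 64.2 CPM. Within FLOX alone, Procr was 136, 60.1, 117, 65.2 and 22 CPM in sub-clusters 1 to 5 and Mki67 was 0, 137, 0, 39.1 and 911 CPM. WT had no barcode in sub-clusters 1 and 2.

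**Figure D5:**
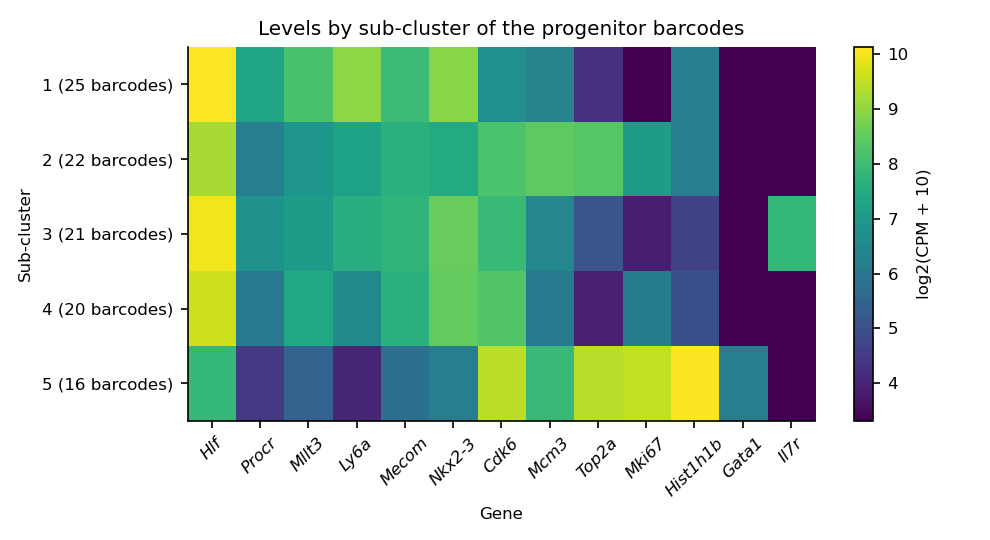
log2(CPM + 10) of 13 genes (columns) in the 5 sub-clusters of the 104 members (rows), as colour. Procr, Mllt3 and Ly6a are highest in sub-cluster 1, Mcm3 in sub-cluster 2, and Mki67, Top2a and Hist1h1b in sub-cluster 5, where Hlf is lowest.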

How the data were processed

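The deposited matrices hold raw UMI counts per gene and barcode, 31053 genes in each of 3 libraries, per the file headers and values. Per the submitters' processing notes, mm10 was the genome build and the tools were Seurat 3.1 and Cell Ranger 2.1.1; the file headers instead carry software version 3.1.0, and which version made the counts is not settled. Library chemistry was the 10x 3′ kit v3.1, with sequencing on a NovaSeq 6000, per the labels' protocols.

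Barcodes with at least 500 genes and at most 10% mitochondrial UMIs were kept, and the gate was applied to raw UMIs. Doublets were scored with Scrublet in scanpy 1.11.5 at an expected 6%, which called 10, 93 and 9 barcodes in WT, FLOX and VC; no barcode was removed. UMIs were summed per library and group and scaled to CPM. Intervals are exact Poisson for levels and Clopper-Pearson for shares, both 95%. A count under 3 UMIs stood at 3 in the denominator of a ratio. List medians use a pseudocount of 10 CPM. Members were sub-clustered with Leiden (leidenalg 0.10.2) on 1000 variable genes, 15 components and 10 neighbours at resolution 1. The counting rules were tried on simulated counts with Poisson spread around a pooled mean and no variation between barcodes. Such counts cannot show how the rules behave where a few barcodes hold most UMIs, as in WT members.

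The members, the 24 gene lists and the rules were chosen with earlier results of these data known. Named genes are those of the gate, leading list members, the 20 highest and 10 lowest ratios against other barcodes, 12 per direction for VC, and 3 leading genes per sub-cluster, without mitochondrial, ribosomal, immunoglobulin and sex-linked genes. Cxcl9, Fabp4, Pf4, Flt4, Spi1, Cdkn1c and a few others were named after their values had been seen. The alternatives tried were other filters, gates, depths, scalings, minimum levels and comparison groups. Some named genes are not reported here.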

Additional observations from a re-analysis of the deposited data

How the results depend on the processing

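No paired analysis was possible because each genotype is 1 library and no label pairs mice across genotypes. Of 72 recomputed counts and shares 50 held within 1.5 times or their interval and 22 moved; of the single-gene values 406 held, 97 moved and 19 reversed. With a Meis1 and Hlf minimum of 3, the genes higher in members were 295, the lower ones 107 and those higher in VC 14; the lowest ratios of Nefh, Ppp1r9a and Nfia fell to 0, and the VC ratio of Hist1h1b turned to 2.27. Without UMIs of Kdr, Flt4, Stab2, Adipoq or Lepr, 84 genes were lower in members and 2 lower in VC; Rora, Pdzk1ip1 and Ppp1r9a fell to a ratio of 0, and Hist1h2ae, Hist1h1b and Hist1h1a turned to 1.57, 1.83 and 1.57. Without the top 5% of doublet scores Rora, Nkx2-3 and Procr fell to 0. Thinning gave a WT share of 0.270% at 2000 UMIs and a FLOX share of 26.3% at 4000. Median-of-ratios scaling gave 101 higher and 278 lower genes in members; a minimum of 10 CPM gave 616 higher and no minimum 737. Against granule-gene barcodes 111 were higher, and against Cd79a barcodes 322 higher and 107 lower. Chosen after seeing the data, leaving out WT gave 567 higher genes, and VC against FLOX alone 44 higher and 38 lower. Also added then, leaving out the granule clause gave shares of 3.87%, 26.7% and 9.35%, 94 genes higher in members and 10 higher in VC; Hist1h2ae, Hist1h3c, Hist1h2ap and Smc4 turned to 1.12, 1.13, 2.31 and 1.01. The cause was not tested. Depth limits WT levels under 18.6 CPM and VC levels under 21.3 CPM, which rest on fewer than 3 UMIs.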

Other observations

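Barcodes outside the filter on genes and mitochondrial UMIs also met the gate in FLOX. They were 18 of 795 such FLOX barcodes (2.26%, 1.35 to 3.56), 1 of 639 in VC (0.156%) and 0 of 1400 in WT, which allows a share of up to 0.263%. The FLOX library thus held the most gated barcodes outside the filter as well as inside it. Barcodes without a UMI of Ptprc that met every other clause numbered 10 in FLOX, 2 in VC and 0 in WT, and the 10 FLOX barcodes had Hlf at 827 CPM and Procr at 103 CPM.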
